A study of Mus musculus with 6 samples.

Results

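Hedgehog signalling was examined through 10 genes of its receiving side, the coreceptors Cdon, Boc and Gas1, the receptor Ptch1, the transducer Smo, the ligand-binding antagonist Hhip, the transcription factors Gli1, Gli2 and Gli3, and Sufu, which holds Gli proteins back. The members were chosen by name, as every probe set of the array annotated to exactly 1 of these symbols, which gave 27 probe sets for 10 of the 18193 genes with such a probe set. RNA of Spot14 GFP positive and of Spot14 GFP negative mouse neural stem cells was hybridised to expression arrays, with 3 arrays per group that the labels call biological replicates. Both groups are described as neural stem cells with a green fluorescent protein (GFP) status for Spot14, the protein encoded by Thrsp. The age and strain of the mice, the sequences that drive the reporter, the way in which positive and negative cells were separated and any pooling of animals do not appear in the labels. The comparison asks whether genes of Hedgehog reception and response differ with the Spot14 signal.

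Hedgehog ligands act by binding Ptch1, a membrane protein that otherwise keeps Smo inactive. Cdon, Boc and Gas1 bind the ligand beside Ptch1 and help to present it, and Hhip competes for it. Once Smo is released, which happens in the primary cilium, Gli2 and Gli3 are no longer turned into repressors, Gli2 acts as the main activator, and Gli1, Ptch1 and Hhip are themselves transcribed as targets. In the adult brain Sonic hedgehog is known to maintain neural stem cells of both neurogenic niches.

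Of the 10 genes, Cdon was called lower and Gli2 higher in GFP positive cells, each at 1 probe set. Both calls were lost under several alternative settings given below, among them the one with no filter on low values. The bases before the RefSeq starts of Cdon and Gli2 are shown because these 2 genes carry the differences that passed the main test. Both are on the GRCm38.p6 assembly, 5′ to 3′ on the strand of the gene, with each CG dinucleotide, the pair of bases that can be methylated, in capitals. The Cdon window is chr9:35451826-35452075 on the plus strand and ends at a start 30548 bases inside the gene as RefSeq draws it, so it is not the region before the longest transcript. The Gli2 window is chr1:119053620-119053869 on the minus strand, and its start lies 786 bases inside the gene.
Cdon: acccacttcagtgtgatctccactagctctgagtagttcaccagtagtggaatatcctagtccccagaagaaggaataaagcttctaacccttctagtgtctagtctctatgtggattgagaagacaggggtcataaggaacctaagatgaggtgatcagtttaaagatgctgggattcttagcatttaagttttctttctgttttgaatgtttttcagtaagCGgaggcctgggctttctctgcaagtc
Gli2: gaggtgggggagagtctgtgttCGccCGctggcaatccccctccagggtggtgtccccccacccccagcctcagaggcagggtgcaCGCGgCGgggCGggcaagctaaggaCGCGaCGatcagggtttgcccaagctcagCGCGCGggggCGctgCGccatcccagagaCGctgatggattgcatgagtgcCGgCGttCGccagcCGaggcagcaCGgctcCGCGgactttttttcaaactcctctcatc

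The Cdon window held 1 CG in 250 bases and the Gli2 window 22, where the median of 32851 RefSeq windows was 6. At least as many were found in 92.1% of windows for Cdon and in 14.8% for Gli2. The binding motif of Gli proteins, searched as GACCACCCA on both strands of windows of 300 bases (250 before the start and 50 after it), was in 0 of the 8 members with a window (Cdon, Gas1, Ptch1, Smo, Hhip, Gli2, Gli3 and Sufu) and in 0.253% of all windows. At so low a share, 0 of 8 says nothing about the members. The Ptch1 window ends at a start 7725 bases inside its gene, so like that of Cdon it is not the region before the outermost start. Gli sites elsewhere in these genes were not searched.

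The values are log2 signals that the authors made with GCRMA, a procedure that corrects background and normalizes arrays together. Array medians ranged from 3.55 to 3.66 in GFP positive and from 3.65 to 3.66 in GFP negative cells. A probe set was tested where at least 3 of 6 arrays read log2 4 or more, and values under log2 4 are called near background. That left 21837 probe sets, of which 224 were higher and 184 lower at a limma adjusted p under 0.05, or 1.87% in all. The GFP negative replicate 3 array differed most from the rest. It scored −88.71 on the first principal component (39.5% of variance), against −0.06 to 45.21 in GFP positive and 8.80 and 22.98 in the other GFP negative arrays. The log2 excess of 3′ over 5′ signal, a sign of RNA quality, ranged from 1.23 to 1.32 for Gapdh in GFP positive arrays and was 1.14, 2.33 and 1.65 in GFP negative replicates 1, 2 and 3. Of the 11 neural stem cell markers on the array 10 were above the filter, among them Sox2 (means of 12.40 and 11.83), Nes (11.22 and 11.71) and Slc1a3 (13.01 and 12.78 in GFP positive and GFP negative cells), while Prom1 was near background. At the brightest probe set of each gene, 7 of the 10 had a positive difference (background 49.5%). By limma 1 rose, Gfap (11.76 and 10.26, adjusted p = 0.0376), and 0 fell (background 1.03% and 0.843%). These shares are of all tested probe sets, and with 1 probe set per gene limma called 248 of 10531 higher and 222 lower. Only Csf1r of 8 microglia markers and Acta2 of 8 endothelial and mural markers were tested. Of 8 oligodendrocyte lineage markers 4 were tested, Olig2 (12.58 and 12.78), Cnp (12.91 and 12.54), Cspg4 (6.70 and 8.01) and Pdgfra (5.34 and 5.88 in GFP positive and GFP negative cells), and Sox10, Mbp, Mog and Mobp were near background. Of 9 neuroblast and neuron markers 4 were tested, Map2 (12.46 and 12.80), Prox1 (11.57 and 11.46), Elavl4 (5.90 and 7.48) and Neurod1 (4.82 and 5.88 in GFP positive and GFP negative cells), and Dcx, Tubb3, Rbfox3, Syt1 and Snap25 were not. Thrsp read 14.32, 14.20 and 14.13 in GFP positive and 13.58, 13.41 and 13.71 in GFP negative cells at its brightest probe set, a difference of 0.65 (limma adjusted p = 0.140). Its other tested probe set, 1422973_a_at, had means of 12.42 and 11.53, a difference of 0.89 (limma adjusted p = 0.0971). The groups did not overlap at either probe set, as for 22.8% of all tested probe sets.

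Of the 27 member probe sets, 14 passed the filter on low values, for 8 genes. The other 13 read between 2.06 and 3.33 in GFP positive and between 2.04 and 3.67 in GFP negative cells, and their groups overlapped in 13 of 13. Gli1 and Hhip were not tested, having no probe set above background. Among the 14 tested, 12 differences were above 0, with a median of 0.41, where 49.5% of all tested probe sets were above 0 and their median was −0.005. The groups did not overlap for 6 of the 14, where 22.8% of all tested probe sets did not overlap. At a limma adjusted p under 0.05, 2 of the 14 passed, 1 in each direction (background 1.87%), and 6 of 14 had an unadjusted p under 0.05 (background 15.7%). The 14 probe sets stand for 8 genes and are not independent. Both Gli2 probe sets share a source sequence, as do both tested Smo probe sets. Both of Gli2 are among the 6 without overlap and among the 6 with an unadjusted p under 0.05. For this reason, and because Cdon met the filter only through its GFP negative arrays, these counts describe the probe sets tested and not the 10 genes.

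**Figure D1:**
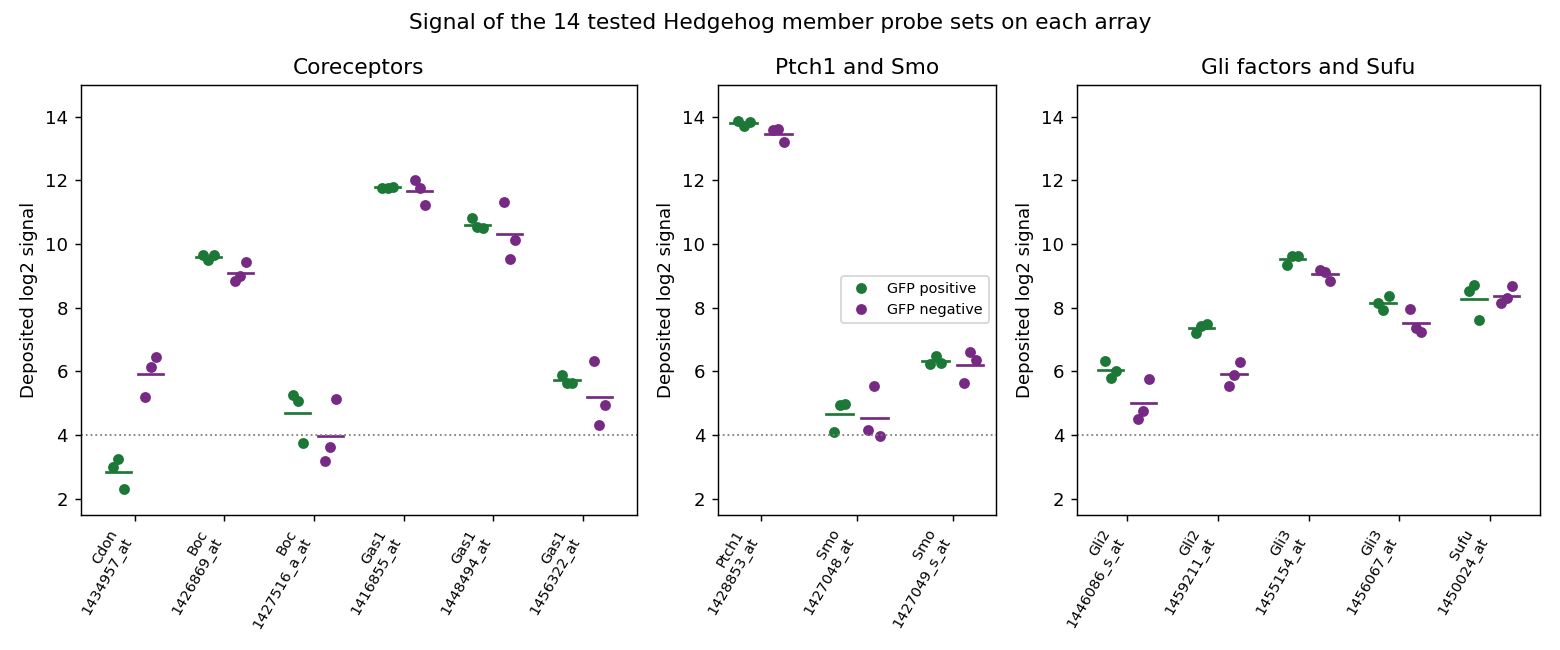
Deposited log2 signal (y axis) of the 14 tested member probe sets (x axis) by role, with a point per array, GFP positive in green left of GFP negative in purple, a bar at each group mean and a dotted line at the filter of log2 4. The 3 GFP positive arrays of Cdon lie under the line and its 3 GFP negative arrays above it, while both Gli2 probe sets are higher on every GFP positive array.

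The 3 coreceptors did not move alike: Cdon fell, and Boc and Gas1 did not pass the test. Cdon, a cell surface protein of the immunoglobulin superfamily, was the strongest difference among the members. Its probe set 1434957_at read 2.98, 3.26 and 2.31 in GFP positive and 5.21, 6.13 and 6.44 in GFP negative cells. All 3 GFP positive arrays were near background and all 3 GFP negative arrays were above log2 5. The means were 2.85 ± 0.49 and 5.93 ± 0.64 (SD, n = 3 each), and the difference of −3.07 (SE 0.39, 95% interval −3.99 to −2.16) passed the limma test (adjusted p = 0.0258), as did 0.843% of all tested probe sets in this direction. This is 8.43-fold lower in GFP positive cells, but a fold against values near background depends on the background correction, and the probe set met the filter only through its GFP negative arrays. Set against the filter level in place of the GFP positive values, the GFP negative mean was 3.80-fold higher. In these bulk samples, fewer cells with Cdon RNA and less Cdon RNA per cell cannot be told apart.

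The call for Cdon was lost under several settings. With all 6 arrays it was lost with no filter on low values (limma adjusted p = 0.0708), with the replicate number as a block (0.134) and with the 3′ to 5′ signal as a covariate (0.138). With 1 array left out and the same 21837 probe sets, a fit chosen after seeing the data, it was lost without GFP positive replicate 1 (limma adjusted p = 0.142), 2 (0.0944) or 3 (0.137) and without GFP negative replicate 2 (0.0936). It held without replicate 1 (0.0358) or 3 (0.0232) of the GFP negative arrays, and the difference ran from −3.44 to −2.80. Without any 1 of the GFP positive arrays limma called 0 probe sets of the whole array, with 1116 to 1292 higher and 999 to 1276 lower at an unadjusted p under 0.05, and the unadjusted p of Cdon was then between 0.000256 and 0.000677. An exact 2-sided permutation test gave p = 0.1, the smallest that 3 arrays against 3 allow. The other Cdon probe set, 1421452_at, was near background on all 6 arrays, with GFP positive values of 2.17 to 2.22 and GFP negative values of 2.15 to 2.20. It was therefore not tested and gives no second measurement of the gene.

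Boc, the closest relative of Cdon among the coreceptors, differed in the opposite direction without passing. Its probe set 1426869_at read 9.66, 9.51 and 9.64 in GFP positive and 8.82, 9.01 and 9.44 in GFP negative cells. The groups did not overlap, and GFP negative replicate 3 came within 0.07 of the lowest GFP positive array. The difference was 0.51 (95% interval 0.00 to 1.03, limma adjusted p = 0.314), or 0.69 without GFP negative replicate 3 (adjusted p = 0.0647). The probe set 1427516_a_at was dimmer and scattered, with 5.27, 5.08 and 3.76 in GFP positive and 3.17, 3.61 and 5.13 in GFP negative cells. Its groups overlapped, its difference was 0.73 (95% interval −0.67 to 2.14), and the remaining Boc probe set, 1427517_at, was near background on all arrays.

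Gas1, a membrane-anchored coreceptor first known as a gene of growth arrest, showed no difference beyond its spread. The probe set 1416855_at read 11.78, 11.76 and 11.80 in GFP positive and 12.01, 11.76 and 11.24 in GFP negative cells. The GFP positive arrays lay within the range of the GFP negative ones, and the difference was 0.11 (95% interval −0.45 to 0.67, limma adjusted p = 0.886). The same held for 1448494_at, with 10.82, 10.52 and 10.50 in GFP positive and 11.33, 9.52 and 10.14 in GFP negative cells. For 1456322_at the values were 5.89, 5.64 and 5.64 in GFP positive and 6.32, 4.30 and 4.96 in GFP negative cells. On both of these, GFP negative replicate 1 was the highest array and GFP negative replicate 2, with the largest 3′ excess, the lowest. With the 3′ to 5′ signal as a covariate the difference went from 0.28 to −0.33 for 1448494_at and from 0.53 to −0.15 for 1456322_at. Whether RNA quality is the cause was not tested. Without the covariate the intervals of these 2 probe sets, −0.76 to 1.33 and −0.61 to 1.67, include changes of over 2-fold upward, so similar levels are not shown. Without GFP negative replicate 3 the difference of 1416855_at was −0.11, and without GFP negative replicate 2 that of 1448494_at was −0.12.

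The receptor and its transducer did not pass the test. Ptch1, the Hedgehog receptor and itself a target of Gli proteins, read 13.86, 13.71 and 13.82 in GFP positive and 13.58, 13.63 and 13.21 in GFP negative cells at 1428853_at. All GFP positive arrays were higher, by 0.09 at the closest pair of arrays. The difference was 0.33, or 1.26-fold (95% interval 0.913-fold to 1.73-fold, limma adjusted p = 0.493). The Ptch1 probe sets 1439663_at (GFP positive values of 2.60 to 3.33, GFP negative values of 2.19 to 2.70) and 1450824_at (2.06 to 2.11 and 2.04 to 2.09) were near background.

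Smo, the membrane protein that carries the signal into the cell, had 2 tested probe sets that were designed from the same source sequence and are not independent. The probe set 1427049_s_at read 6.24, 6.48 and 6.27 in GFP positive and 5.64, 6.62 and 6.35 in GFP negative cells. The probe set 1427048_at read 4.08, 4.94 and 4.97 in GFP positive and 4.15, 5.54 and 3.96 in GFP negative cells. In both, GFP negative replicate 2 was the highest of 6 arrays and the GFP positive arrays lay within the range of the GFP negative ones. The differences were 0.13 (95% interval −0.54 to 0.79) and 0.12 (−0.98 to 1.22), and their sign turned when single arrays were left out, to −0.16 for 1427049_s_at without GFP negative replicate 1 and to −0.18 for 1427048_at without GFP negative replicate 3. The third Smo probe set, 1442215_at, was near background, with GFP positive values of 2.94 to 3.02 and GFP negative values of 2.99 to 3.67. Hhip, the secreted and membrane-bound antagonist that is a Gli target, read between 2.12 and 2.93 in GFP positive and between 2.09 and 2.89 in GFP negative cells over its 4 probe sets.

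Among the Gli factors, Gli2 rose, Gli3 was higher at 2 probe sets without passing, and Gli1 was near background. Gli2, the main activator of the pathway, read 7.21, 7.42 and 7.48 in GFP positive and 5.54, 5.89 and 6.29 in GFP negative cells at 1459211_at. The lowest GFP positive array was 0.91 above the highest GFP negative array. The means were 7.37 ± 0.14 and 5.91 ± 0.38 (SD, n = 3 each), and the difference of 1.46 (SE 0.24, 95% interval 0.89 to 2.02), or 2.75-fold, passed the limma test (adjusted p = 0.0382), as did 1.03% of all tested probe sets in this direction. With all 6 arrays the call was lost with no filter on low values (limma adjusted p = 0.0796), with trend and robust eBayes (0.0527), with the replicate number as a block (0.149) and with the 3′ to 5′ signal as a covariate (0.159). With 1 array left out and the same probe sets tested, it held without GFP negative replicate 3 (adjusted p = 0.0185). It was lost without GFP positive replicate 1 (0.158), 2 (0.164) or 3 (0.185) and without GFP negative replicate 1 (0.0706) or 2 (0.122), while the difference ran from 1.27 to 1.65. The exact 2-sided permutation p was again 0.1.

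The other Gli2 probe set, 1446086_s_at, read 6.33, 5.80 and 6.02 in GFP positive and 4.51, 4.75 and 5.76 in GFP negative cells. Its groups did not overlap either, but GFP negative replicate 3 came within 0.04 of the lowest GFP positive array. The difference was 1.04, or 2.06-fold (95% interval 1.16-fold to 3.66-fold, limma adjusted p = 0.210). Without GFP negative replicate 3 it was 1.42 and passed (adjusted p = 0.0272), as did 5.66% of all tested probe sets in that fit. Both Gli2 probe sets were designed from the same source sequence, so their likeness is not that of independent probes.

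Gli3, which acts mainly as the repressor when no ligand is bound, had 2 tested probe sets of different source sequences. The probe set 1455154_at read 9.36, 9.63 and 9.64 in GFP positive and 9.20, 9.11 and 8.83 in GFP negative cells, without overlap. The probe set 1456067_at read 8.14, 7.94 and 8.36 in GFP positive and 7.95, 7.35 and 7.25 in GFP negative cells, where GFP negative replicate 1 lay between the GFP positive arrays. The differences were 0.49 (95% interval 0.03 to 0.96, limma adjusted p = 0.288) and 0.63 (0.04 to 1.22, 0.286), or 1.41-fold and 1.55-fold. Gli3 at 1450525_at was near background, with GFP positive values of 2.18 to 2.25 and GFP negative values of 2.15 to 2.22. Gli1, the transcription factor often read as a sign of pathway activity, had 1 probe set, 1449058_at, at 2.18, 2.22 and 2.23 in GFP positive and 2.21, 2.20 and 2.16 in GFP negative cells. These are values of the array's floor and carry no order between the groups.

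Sufu, the cytoplasmic inhibitor of Gli proteins, differed by −0.09 at 1450024_at (95% interval −0.87 to 0.69, limma adjusted p = 0.935). It read 8.52, 8.73 and 7.60 in GFP positive and 8.14, 8.31 and 8.67 in GFP negative cells. GFP positive replicate 3 was the lowest of all 6 arrays, and without it the difference was 0.25. The 2 other Sufu probe sets, 1420848_at and 1431713_at, were near background, with GFP positive values of 2.19 to 2.26 and GFP negative values of 2.17 to 2.24.

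**Figure D2:**
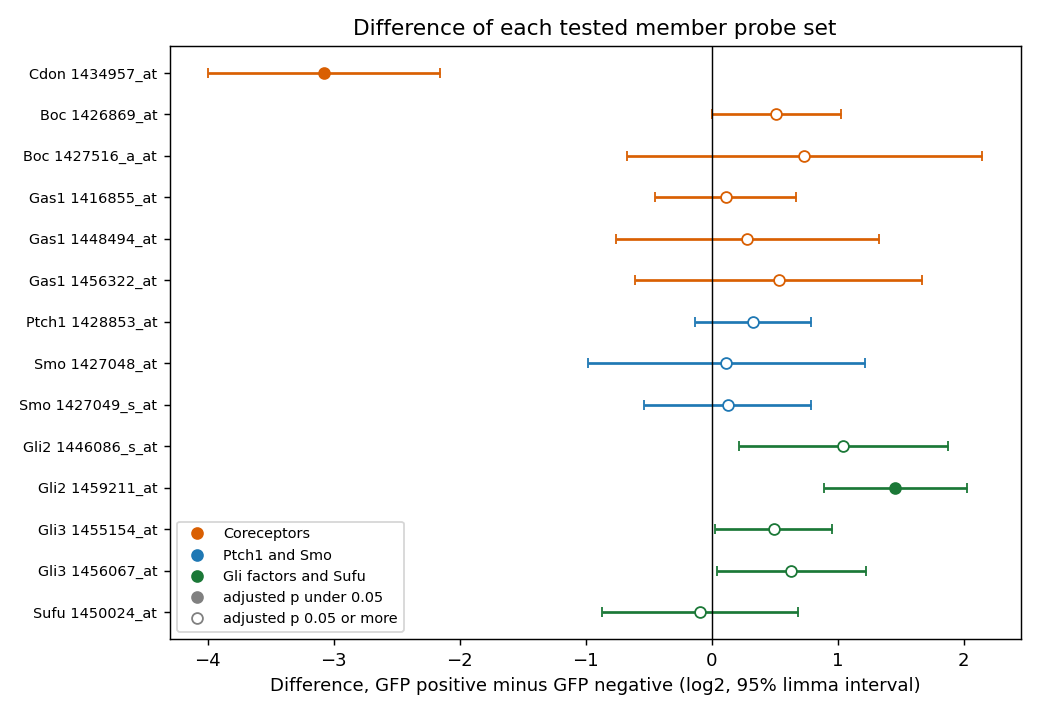
Difference between group means (x axis, log2, GFP positive minus GFP negative) of the 14 tested member probe sets (y axis), with 95% limma intervals, colour for the role and a filled point for an adjusted p under 0.05. The filled points are Cdon 1434957_at at −3.07 and Gli2 1459211_at at 1.46. The intervals of the second Gli2 and both Gli3 probe sets lie above 0, and that of Boc 1426869_at lies barely above 0.

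**Figure D3:**
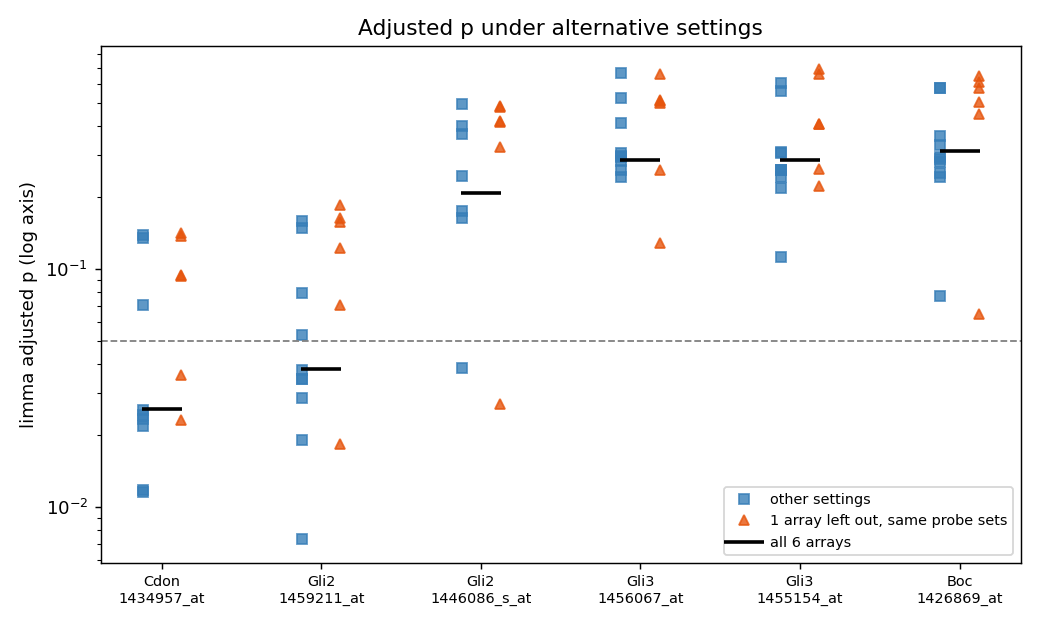
limma adjusted p (y axis, log scale) of 6 member probe sets (x axis) with all 6 arrays (black bar), with 1 array left out and the same probe sets tested (triangles) and under the other settings (squares), with a dashed line at 0.05. The points of Cdon 1434957_at and Gli2 1459211_at fall on both sides of the line, and those of Gli3 and Boc lie above it.

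The profiles of the 2 genes that passed were set against all tested probe sets by the root mean square difference of their 6 centred log2 values, a description over 6 arrays. On the GFP positive arrays the Cdon values are near background, which limits its comparison. The genes nearest to Cdon were Ttk (0.25), Mcm5 (0.25), Ccna2 (0.28), Dgkk (0.31) and Col18a1 (0.32). Ttk is a mitotic checkpoint kinase, Mcm5 a subunit of the replicative helicase and Ccna2 a cyclin of S and G2 phase. The differences of Ttk, Mcm5, Ccna2, Dgkk and Col18a1 ran from −2.89 to −2.68. The values were centred but not scaled, so genes with a fall of like size come out as near, whatever their function. The genes nearest to Gli2 were Syt17 (0.13), D2hgdh (0.14), Aldh2 (0.14), Csdc2 (0.14) and C2 (0.15), of which Aldh2 is a mitochondrial aldehyde dehydrogenase.

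Genes of dividing cells and of astrocytes passed the test as well. Each marker gene was read at its brightest probe set. The background shares are those of all tested probe sets. With 1 probe set per gene limma called a larger share, 248 of 10531 higher and 222 lower (4.46% in all). Of 14 mitosis genes on the array 14 were tested, all with a negative difference, and 7 fell at a limma adjusted p under 0.05 (background 0.843% of all tested probe sets). The median of these genes, each relative to its own mean, was −0.93, −0.60 and −1.30 on the GFP positive and 0.57, 0.90 and 1.43 on the GFP negative arrays, and their mean log2 signal ranged from 5.41 to 6.30 on GFP positive and from 7.45 to 8.32 on GFP negative arrays. On the same scale Cdon was at −1.40, −1.13 and −2.08 in GFP positive and 0.82, 1.74 and 2.05 in GFP negative cells. In both, GFP negative replicate 3 was the highest array, while the GFP positive values of Cdon, all near background, carry no order. Of 10 astrocyte markers 9 were tested, 9 had a positive difference (background 49.5%) and 4 rose (background 1.03%). Their mean log2 signal ranged from 10.70 to 10.89 on GFP positive and from 9.29 to 9.73 on GFP negative arrays, with Gjb6 near background. The mean log2 signal of the 4 tested neuroblast and neuron markers was 8.57, 8.98 and 8.51 on GFP positive and 9.43, 9.47 and 9.31 on GFP negative arrays, without overlap, and 0 of 4 passed by limma, with adjusted p of 0.0798 for Elavl4 (−1.59) and 0.121 for Neurod1 (−1.06). That of the 4 oligodendrocyte lineage markers was 9.29, 9.59 and 9.27 on GFP positive and 9.64, 9.76 and 10.01 on GFP negative arrays, and none of them passed either (Cspg4 −1.31, limma adjusted p = 0.188). Acta2, a mural and smooth muscle actin, differed by −1.29 (limma adjusted p = 0.0717). The GFP positive means of Acta2 (3.96) and Plk1 (3.11) and the GFP negative mean of Cldn10 (3.71) were under log2 4. Plk1 is among the mitosis genes that fell and Cldn10 among the astrocyte genes that rose. As with Cdon, the marker counts therefore describe the probe sets tested, and differences against values near background depend on the background correction. The part of cell division or of these cell types in the differences of Cdon and Gli2 was not tested.

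**Figure D4:**
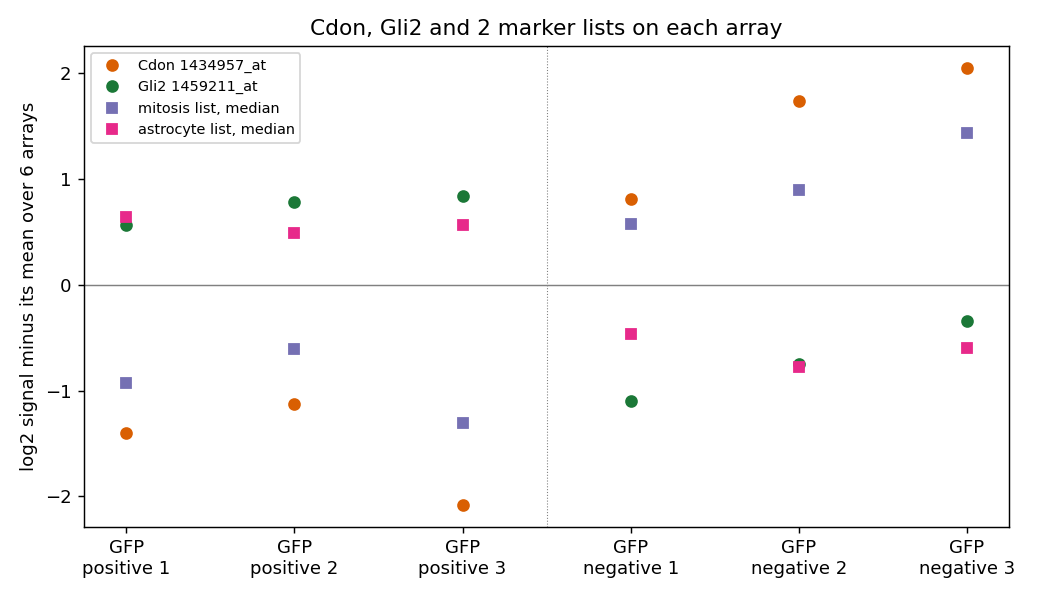
log2 signal minus its mean over 6 arrays (y axis) on each array (x axis) for Cdon 1434957_at, Gli2 1459211_at and the medians of 14 mitosis and 9 astrocyte genes. Cdon and the mitosis genes are under 0 on all GFP positive and above 0 on all GFP negative arrays, and Gli2 and the astrocyte genes the other way round.

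Of the other pathway genes none passed the test. Among 66 listed genes of ligand production, signal transduction, ciliary transport and Gli targets, 62 were on the array and 47 had a tested probe set, 100 in all. By limma 0 of 100 passed after adjustment (background 1.87%), and at an unadjusted p under 0.05 2 were higher and 6 lower (background 15.7% in either direction). The median difference was 0.06, beside −0.005 over all tested probe sets.

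Ligand production was represented by 3 genes. Of the ligands only Dhh, Desert hedgehog, was above background, and Shh and Ihh were not tested. At 1434959_at Dhh read 8.16, 7.93 and 7.51 in GFP positive and 8.70, 8.84 and 9.34 in GFP negative cells, without overlap. The other Dhh probe set, 1422127_at, was near background on all arrays (means of 2.07 and 2.05) and gives no second measurement of the gene. Dhh was thus read at 1434959_at alone, and 22.8% of all tested probe sets likewise had groups without overlap. The difference at 1434959_at was −1.09 (95% interval −1.71 to −0.47, limma adjusted p = 0.0970) and did not pass. Disp1, which releases lipid-bound ligand from the cell, differed by −0.41 at 1434795_at (SE 0.41, limma adjusted p = 0.709) and by 0.29 at 1435132_at (SE 0.50, adjusted p = 0.849), with overlapping groups at both.

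For the 20 tested transduction genes, which include kinases of Gli proteins, ciliary proteins and ubiquitin ligase subunits, the differences of 48 probe sets ran from −0.63 to 0.57 and had a median of 0.03. The smallest p belonged to Cul3, a ubiquitin ligase scaffold (−0.54 at 1434718_at, limma adjusted p = 0.342), and Prkacb, a catalytic subunit of protein kinase A (0.40 at 1420611_at, 0.440). The 4 other tested probe sets of Cul3 ran from −0.29 to 0.016, and the other one of Prkacb was at 0.29. Of 27 probe sets of ciliary transport genes 22 were above 0 (background 49.5%), with a median of 0.17. The 27 stand for 17 genes, some with several probe sets, and are not independent. Among them 1 had an unadjusted limma p under 0.05 (background 15.7%). Wdr19, a subunit of the retrograde transport complex of the cilium, read 8.76, 8.63 and 8.70 in GFP positive and 8.24, 7.90 and 7.76 in GFP negative cells. Its difference was 0.72 (SE 0.20, limma adjusted p = 0.134), and that of the kinesin subunit Kif3b was 0.58 at 1450074_at (0.331) and 0.09 and 0.15 at its 2 other tested probe sets.

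Genes known as Gli targets in other settings went both ways. Nkx2-2, a ventral patterning factor induced by Hedgehog in the neural tube, read 7.71, 7.60 and 7.14 in GFP positive and 8.27, 8.88 and 8.47 in GFP negative cells, a difference of −1.06 (limma adjusted p = 0.0939). Bcl2, an inhibitor of cell death, read 8.92, 9.07 and 9.03 in GFP positive and 8.34, 7.77 and 8.26 in GFP negative cells at 1437122_at, a difference of 0.88 (adjusted p = 0.0991). The 4 other tested Bcl2 probe sets differed by 0.75 (1422938_at), 0.59 (1457687_at), 0.08 (1443837_x_at) and −0.34 (1440770_at), each with overlapping groups. Named after their values were seen, the 3 tested probe sets of Ccnd1, cyclin D1, differed by −0.95, −0.80 and −0.55 (limma adjusted p = 0.126, 0.159 and 0.199), each without overlap. The tested probe sets of Ccnd2, in the same list, ran from −0.08 to 0.17 with overlapping groups. Of all 21 tested probe sets in the list 7 did not overlap, 6 lower and 1 higher (background 22.8%), and the median difference was 0.03. Without GFP negative replicate 3, 1 of the 100 other pathway probe sets passed, Ccnd1 1417420_at, where 5.66% of all tested probe sets passed. Foxm1, a cell cycle transcription factor also named after its values were seen, read 4.10, 4.12 and 3.27 in GFP positive and 4.14, 5.06 and 6.02 in GFP negative cells at 1417748_x_at. The groups did not overlap, but they nearly met at 4.12 and 4.14, close to the filter of log2 4. The difference of Foxm1 was −1.24 (limma adjusted p = 0.280).

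**Figure D5:**
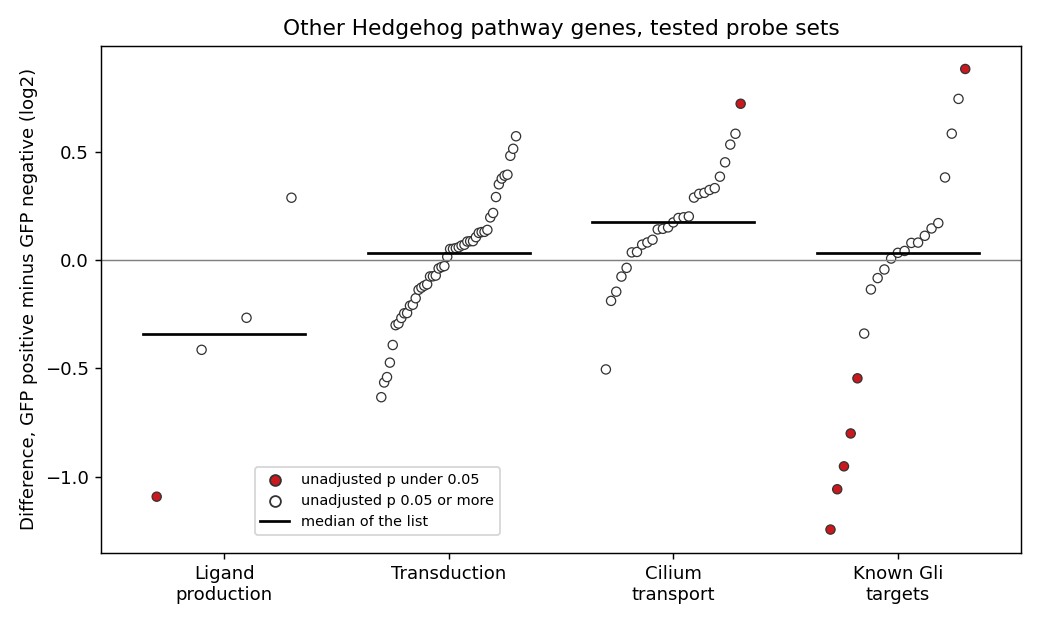
Difference between group means (y axis, log2, GFP positive minus GFP negative) of 100 tested probe sets in 4 lists (x axis), sorted within each list, with a bar at the median and red points for an unadjusted p under 0.05. The medians lie at −0.34, 0.03, 0.17 and 0.03, and none of the points passed after adjustment.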

How the data were processed

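The deposited values are log2 signals of 45101 probe sets on 6 arrays. The submitters' processing notes name GCRMA as the method; no version and no genome build are given in the sources used here. Per the labels, total RNA was biotin labelled. GCRMA pulls dim probe sets to a low floor, so folds near background depend on it, and it makes array distributions alike.

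Names came from the annotation of the platform, where 34945 probe sets named 1 gene. Without 64 control probe sets, those with log2 4 or more on at least 3 of 6 arrays were compared, probe set by probe set, with a linear model without covariates in limma 3.58.1 (R 4.3.3), with eBayes and Benjamini-Hochberg adjustment over all 21837. The script was tested on simulated data. The small number of arrays limits the precision, and p-values measure the spread between these arrays. Same-numbered arrays deviated from their group means with correlations of −0.21, −0.04 and −0.55, so replicate numbers were not taken as pairs.

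All member probe sets are named. Of other pathway lists those past the threshold are named or, with none, the 2 genes with the smallest p. Ccnd1, Ccnd2 and Foxm1 were named in addition, after their values were seen. The 5 nearest profiles of each member that passed are named too. Members and lists were chosen with earlier results of these data known. The promoter windows are RefSeq's, of GRCm38.p6. Another 16 settings were tried, and 6 more that were chosen after seeing the data. Protein and probe sequences were not used here.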

Additional observations from a re-analysis of the deposited data

How the results depend on the processing

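The number of tested probe sets past the limma adjusted p of 0.05, 408 with all arrays, was 203 with no filter on low values and 1728 with array weights, which gave GFP positive replicate 2 a weight of 7.39 and GFP negative replicate 3 one of 0.178. It was 0 with the replicate block (1269 higher and 1123 lower unadjusted) and 0 with the 3′ to 5′ signal as a covariate (1277 and 1123 unadjusted), and ran from 0 to 1235 with 1 array left out. Member probe sets past the threshold, 2 with all arrays, numbered 0 with no filter, 0 with the replicate block and 0 with the covariate, 1 with a filter of log2 6 (Gli2) and 1 with trend and robust eBayes (Cdon). With 1 array left out they numbered 0 to 3, the 3 without GFP negative replicate 3, where 5.66% of all tested probe sets passed. Of the 100 other pathway probe sets, 3 passed with array weights (Nkx2-2, Dhh and Bcl2), where 7.91% of all tested probe sets passed. With 1 array left out it was 0 to 1, the 1 without GFP negative replicate 3, where 5.66% of all passed with the same probe sets tested.

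Cdon kept its difference of −3.07 without passing with no filter (limma adjusted p = 0.0708) and with the replicate block (0.134). With the covariate it was −2.82 (0.138), and with 1 array left out it ran from −3.44 to −2.80. Over the settings in which Cdon was tested, its adjusted p ran from 0.0116 to 0.167. A filter of log2 6, or the filter reapplied after leaving out a GFP negative array, left it untested. Gli2 1459211_at kept its difference of 1.46 without passing with no filter (0.0796), with trend and robust eBayes (0.0527) and with the replicate block (0.149). With the covariate it was 1.54 (0.159), and with 1 array left out it ran from 1.27 to 1.65. Its adjusted p ran from 0.00733 to 0.201 over all settings. The causes of these losses were not tested.

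No sign of a tested member changed under quantile normalization or a common median. Array weights turned Gas1 1416855_at to −0.052 and Sufu to 0.30, and the covariate turned Gas1 1448494_at to −0.33 and Gas1 1456322_at to −0.15. With 1 array left out, Gas1 1416855_at ran from −0.11 to 0.28, Gas1 1448494_at from −0.12 to 0.78, Smo 1427048_at from −0.18 to 0.61, Smo 1427049_s_at from −0.16 to 0.33 and Sufu from −0.32 to 0.25. Probe sets near background, Gli1 and Hhip among them, give no measure of change.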
